A study of Schmidtea mediterranea with 5 samples.

Results

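In the planarian flatworm Schmidtea mediterranea, 136 transcripts stood at least 2-fold higher in untreated animals than in every library made from animals that had been exposed to light. They were selected on the deposited values of all 5 libraries. A transcript was taken where CPM, the reads per 1000000 reads of a library, averaged 1 or more over the libraries and where CPM + 1 in the dark control was at least 2 times that in each of the 4 other libraries. The selection holds 0.638% of the 21307 transcripts over that mean, out of 82843 in the table. Because all 5 libraries entered the choice, the lower levels outside the dark control are how the transcripts were chosen and not a finding. What the choice left free is the order and the size of the differences among the 4 other libraries, which it treats alike.

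The 5 groups were untreated wild-type animals kept in the dark, animals after 8 days of light, and animals taken back to the dark for 1, 2 or 8 days after 8 days of light. All were whole animals of the clonal asexual strain CIW4, fed on beef liver and starved for 1 week before collection per the labels' growth protocol, and the animals returned to the dark were starved ones per the design text. The labels also carry a treatment text about RNA interference and amputation. The sample titles name no such treatment, so the text was taken to belong to another experiment and was not used. Each group is 1 library, made from 3 biological replicates mixed in equal amounts, so the spread between animals is not measured and no p-value is given. The libraries held 38447289 to 50045371 reads. Intervals given with ratios are 95% counting intervals and compare 2 libraries, not 2 conditions. The dark control also differs from the other groups in handling and in the time since the start of the treatment, and these cannot be told apart from light.

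Planarian body pigment is made by pigment cells under the dorsal epidermis, which hold ommochromes and porphyrins. Porphyrins are light-sensitive, and prolonged light leads to the loss of pigment cells. In the dark, new pigment cells arise from the stem cells that renew all planarian tissues, and body colour returns. The files pair the transcript numbers with no gene name, so no gene, pathway or cell type is assigned to any of the 136. A transcript here is an assembled contig, and without its length the CPM of different contigs are not levels of molecules that can be ranked. In whole-animal RNA, fewer cells of a type and less RNA per cell cannot be told apart.

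The 136 transcripts covered a wide range of read levels. In the dark control their CPM ran from 2.69 to 1874, with a median of 23.0 CPM, against a median of 8.58 CPM for all transcripts over the filter. In light the median was 4.42 CPM, and after 1, 2 and 8 days of return it was 4.81, 5.14 and 5.83 CPM. Set against the control CPM of the same transcript, the median level was 23.0% in light and 30.9%, 29.8% and 30.3% at the 3 return times. Measured over transcripts, the middle 50% of these shares narrowed, from between 8.79% and 34.1% in light to between 21.9% and 37.4% after 8 days. The choice kept every share under 50% in each library, so the upper end had little room to move. In light 36 of the 136 were under 10% of their control CPM, and after 8 days of return 11 were.

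The summed reads followed another course than the median. The 136 together took 1.48% of the reads of the dark control, 0.519% in light, 0.547% and 0.538% after 1 and 2 days, and 0.471% after 8 days. The sum after 8 days was thus below that in light. It rests on 4 transcripts of very high read level. Without them the share was 0.875% in the control, 0.255% in light, 0.278% and 0.282% after 1 and 2 days, and 0.284% after 8 days, so that the 8-day library was then the highest of the 4.

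Relative to light, most of the transcripts were higher in the return libraries, by small amounts. The log2 ratio of CPM + 1 to light had medians of 0.15, 0.18 and 0.36 at the 3 return times, against 0.01, 0.0052 and 0.04 over all transcripts. The number above light by any amount was 110 of 136 after 1 day, 99 after 2 days and 98 after 8 days, where 53.5%, 51.6% and 58.8% of all transcripts were above it. At least 2-fold above light stood 1 transcript after 1 day, 3 after 2 days and 13 after 8 days, against 0.0798%, 0.136% and 0.418% of all transcripts. At least 2-fold below light stood 0 of 136 after 8 days, against 0.268% of all. The count of 13 depends on the added 1 CPM. With 0.1 CPM added, and the transcripts chosen anew, 52 of 180 stood 2-fold above light after 8 days, and with 5 CPM added 5 of 68 did.

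Among the 4 libraries, light held the lowest level for 84 of the 136, a share of 61.8% against 31.3% of all transcripts. The 8-day return library held the highest level for 70 of them, 51.5% against 38.0%. It also held the lowest level for 31, a share of 22.8% that is near the 24.6% of all transcripts. Levels that were higher at every step from light through 1, 2 and 8 days were seen for 37 transcripts, 27.2% against 8.65% of all. Levels that were lower at every step were seen for 5, 3.68% against 6.19%. The step from 1 to 2 days was small, with a median log2 ratio of 0.0046 and 71 of 136 higher at 2 days, 52.2% against 47.4% of all.

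On a log2 scale of CPM + 1 on which light is 0% and the dark control 100%, the median transcript was 8.56% of the way back after 1 day, 9.31% after 2 days and 18.9% after 8 days. The choice of transcripts bounds these values from above, since every transcript had to stay under the control by 2-fold. By 8 days 25% of the way had been covered by 56 transcripts and 50% by 2, where among the 9748 transcripts of the table that were lower in light than in the control 69.9% and 55.3% had covered it. Only a transcript at least 4-fold lower in light could cover 50% and stay chosen. For the 90 that were 2- to 4-fold lower the result was fixed in advance, so the low counts are not a finding. At the other end 38 transcripts, 27.9%, stood farther from the control after 8 days of return than in light. Of the same 9748 transcripts 20.1% did so. The choice left out transcripts that came back, and the 9748 include any that were lower in light by a small amount. No difference is read from these 2 shares.

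**Figure D1:**
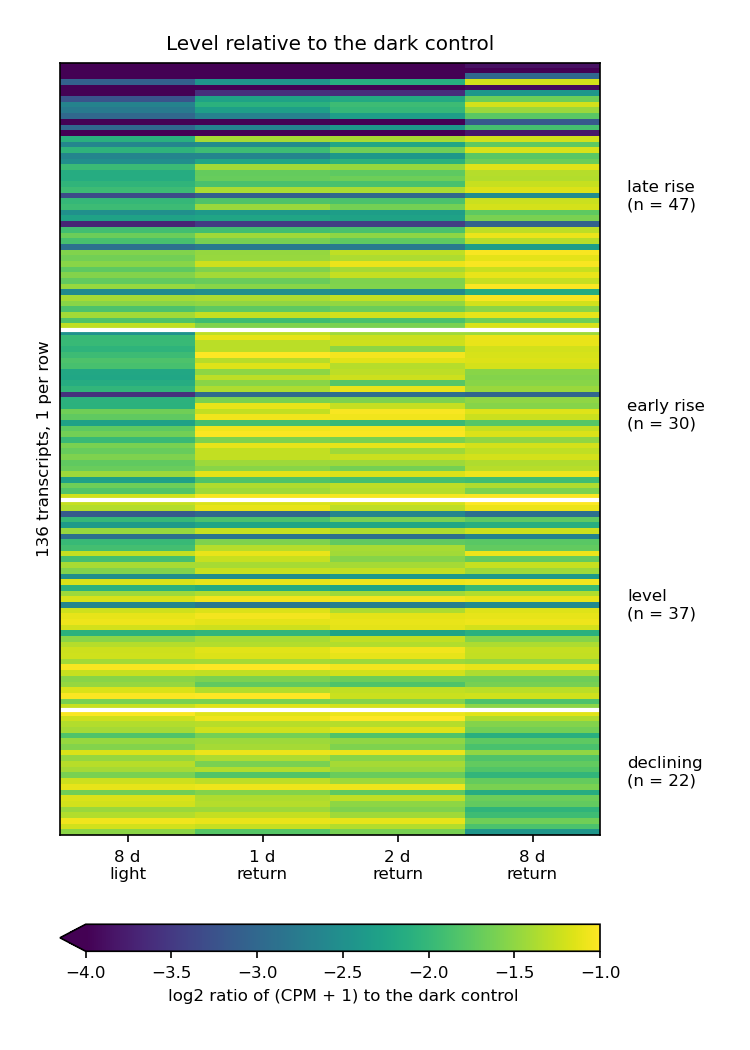
Log2 ratio of CPM + 1 to the dark control (colour) for the 136 transcripts (rows) in the 4 other libraries (columns), in the 4 courses described in the text and, within each, from the highest to the lowest ratio of 8-day return to light. Yellow marks transcripts just past the 2-fold limit of the choice, and the darkest colour those at or under a log2 ratio of -4.

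The transcripts were divided into 4 courses by the counting intervals of their CPM ratios, a division made after the values had been seen. A late rise means above light after 8 days and also above the 1-day library. An early rise means above light after 8 days but not above the 1-day library beyond counting error. Few reads can also give this label, and it does not require the 1-day library to be above light. A decline means below light after 8 days, and a transcript is called level where the interval holds 1. The late rise held 47 transcripts (34.6% against 14.9% of all transcripts), the early rise 30 (22.1% against 8.38%), the level course 37 (27.2% against 61.5%) and the decline 22 (16.2% against 15.3%). Together 77 of the 136 stood above light after 8 days beyond counting error (23.2% of all transcripts) and 22 below it (15.3%). With trimmed-mean-of-M-values scaling these numbers were 75 and 24.

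Counting intervals are narrow for transcripts with many reads, so the courses were also counted by control level. Of the 30 transcripts with at least 100 CPM in the control, 15 had a late rise and 13 declined, or 50.0% and 43.3%. Among all transcripts of that level the shares were 32.1% and 40.7%, so the share that declined was near the background. Of the 50 transcripts under 10 CPM, 20 had an early rise, 40.0% against 8.16% of all transcripts of that level, and 9 a late rise, 18.0% against 7.25%. Of the 56 between these limits, 23 had a late rise (41.1% against 21.8%), 9 an early rise (16.1% against 8.27%) and 8 declined (14.3% against 23.1%).

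**Figure D2:**
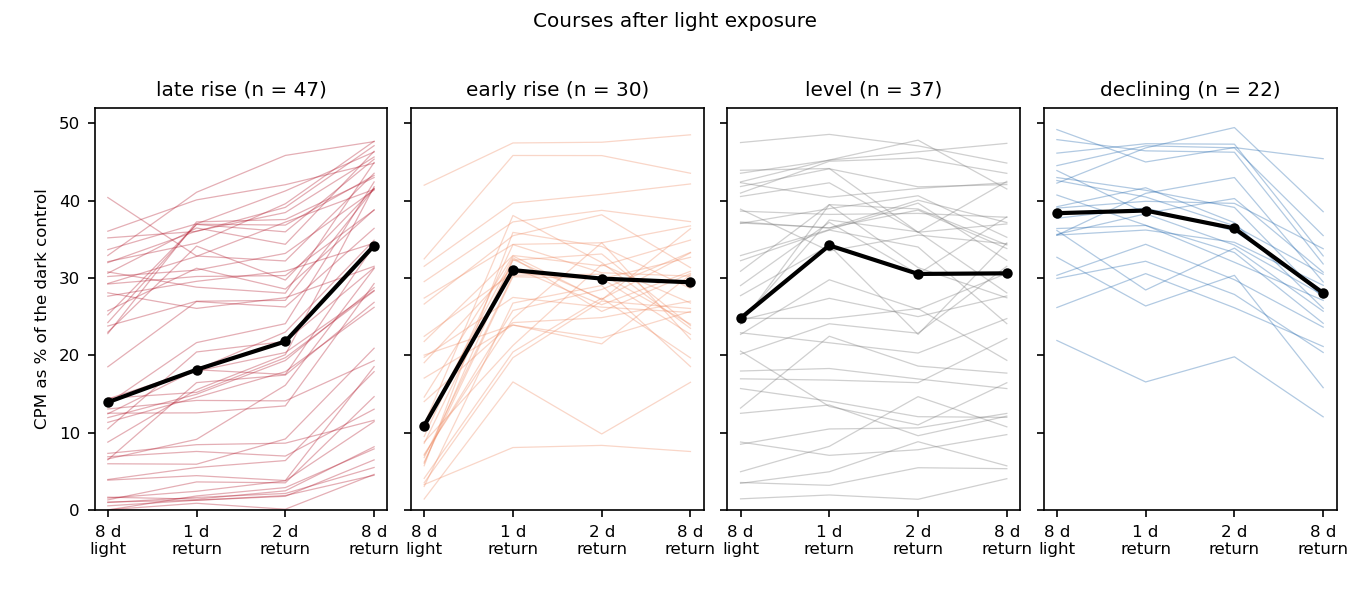
CPM as a percent of the dark control (vertical axis) in light and after 1, 2 and 8 days of return (horizontal axis), 1 thin line for each transcript and a black line for the median of each course. The median of the late-rise course climbs from 13.9% to 34.2%, that of the early-rise course steps from 10.9% to 31.0% within 1 day and stays there, and that of the declining course ends at 28.1%.

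For the late-rise course the median share of control CPM was 13.9% in light, 18.1% after 1 day, 21.8% after 2 days and 34.2% after 8 days. Among its 47 transcripts, 28 were at least 4-fold lower in light on the CPM + 1 scale and 30 were higher at every step. It held 12 of the 13 transcripts that stood 2-fold above light after 8 days.

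SmedASXL_002843 had 262 CPM in the dark control, 1.40 CPM in light, and 3.31, 4.64 and 17.0 CPM at the 3 return times. Its level after 8 days was 12.1-fold above light (9.16 to 16.2) and still 15.4-fold under the control (14.4 to 16.6), by ratios of CPM. Its log2 ratio of CPM + 1 to light, 2.90, was the highest among the 136, but its ratio of CPM was not. SmedASXL_005875 followed the same order at a lower level, with 74.2, 1.14, 1.79, 2.80 and 8.48 CPM in the 5 libraries. After 8 days it was 7.41-fold above light (5.42 to 10.4) and 8.75-fold under the control (7.89 to 9.72). In both transcripts each library stood above the one before it from light onwards, and every library after the control was far under it.

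SmedASXL_012615 had 86.0 CPM in the control, 0.832 CPM in light and 1.40, 1.84 and 4.73 CPM after 1, 2 and 8 days. It ended 18.2-fold under the control (15.9 to 20.9). SmedASXL_017505, with 35.2 CPM in the control and 0.364, 0.443, 0.659 and 1.58 CPM afterwards, ended 22.2-fold under it (17.7 to 28.4). The reads of these 2 transcripts kept 1 ratio over the 5 libraries within counting error. SmedASXL_012724 had 29.8 CPM in the control and 0.494 and 0.419 CPM in light and after 1 day. It stood at 0.739 CPM after 2 days and 2.44 CPM after 8 days, so that its rise lay after the first day.

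SmedASXL_020150 had 3446 reads (77.8 CPM) in the control, 1 read in light, 29 reads after 1 day, 4 reads after 2 days and 172 reads (3.58 CPM) after 8 days. It is the transcript farthest under the control after 8 days by the ratio of CPM + 1, at 21.7-fold by the ratio of CPM (18.6 to 25.5), and its course was not even. SmedASXL_000061 was the only one of the 136 with 0 reads in light, which allows a level of up to 0.078 CPM (3 reads). It had 8.96 CPM in the control, so against that floor it was at least 115-fold lower in light, and the 95% counting interval of the ratio starts at 93.0-fold. It had 7, 13 and 34 reads after 1, 2 and 8 days. SmedASXL_019161 differed from these by its remaining level. It had 201 CPM in the control, 14.7 CPM in light, 17.0 and 17.4 CPM after 1 and 2 days and 23.3 CPM after 8 days, 8.62-fold under the control (8.10 to 9.18).

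The return was fullest for SmedASXL_011861, which was 61.2% of the way back after 8 days. It had 28.4 CPM in the control, 2.50 CPM in light, and 4.43, 5.71 and 11.9 CPM after 1, 2 and 8 days. SmedASXL_006807, the other transcript past 50%, is named because of that count. It stood at 40.8, 5.62, 8.83, 9.83 and 17.3 CPM in the same order and was 55.2% of the way back. At the opposite end of the course was SmedASXL_005690, with the lowest log2 ratio of CPM + 1 to light after 8 days, 0.105. SmedASXL_049390 also rose by little. With 474 CPM in the control, 133 CPM in light, 124 and 130 CPM after 1 and 2 days and 149 CPM after 8 days, its late rise was 1.12-fold (1.08 to 1.16).

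The early-rise course was made mostly of transcripts with few reads, though SmedASXL_007979 had 202 CPM in the control. The control median of its 30 transcripts was 5.99 CPM, and 20 of them were under 10 CPM. Their median share of the control was 10.9% in light, 31.0% after 1 day, 29.9% after 2 days and 29.5% after 8 days. The difference from light was thus present in the median after 1 day, and the later medians lay close together. All 30 were above light after 1 day by some amount, but not all beyond counting error. For SmedASXL_015354, for example, the interval held 1 (1.19-fold, 0.809 to 1.77). SmedASXL_001444, which passed the 2-fold limit by little, had 161 reads (3.63 CPM) in the control, 8 in light, and 56, 62 and 50 after 1, 2 and 8 days. Its 1-day level was 6.27-fold above light (2.97 to 15.2). The 1 transcript of the 136 that was 2-fold above light on the CPM + 1 scale after 1 day was SmedASXL_020243, named because of that count. It stood at 9.57 CPM in the control, 0.910 CPM in light and 3.29, 2.94 and 2.90 CPM afterwards, and its 1-day level was 3.61-fold above light (2.48 to 5.39).

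The declining course held the transcripts with the most reads. The control median of its 22 transcripts was 139 CPM, and 13 had at least 100 CPM. None of the 22 was 4-fold lower in light. Their median share of the control was 38.4% in light, 38.7% after 1 day, 36.4% after 2 days and 28.1% after 8 days. The median thus differed most from light in the 8-day library, where each of the 22 was below its 2-day level. For SmedASXL_006595 that step was within counting error, with a ratio of 0.969 (0.935 to 1.004). Some of the 22 were below light earlier: 13 were above it by any amount after 1 day and 5 after 2 days. SmedASXL_012229 was already at 0.875 of its light level after 1 day (0.818 to 0.935).

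SmedASXL_004239 had the highest control level of all 136, at 1874 CPM. It had 735 CPM in light, 781 and 697 CPM after 1 and 2 days and 489 CPM after 8 days, which was 1.5-fold under light (1.48 to 1.53) and 3.83-fold under the control (3.78 to 3.89). SmedASXL_009678 and SmedASXL_009679 carry consecutive numbers and had 1716 and 1640 CPM in the control. The former stood at 764 CPM in light, 808 and 804 CPM after 1 and 2 days and 609 CPM after 8 days. The latter stood at 786, 762, 759 and 522 CPM in the same libraries. All 3 stood near their light level through 2 days and were lowest after 8 days.

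SmedASXL_018673 had 829 CPM in the control, 353 CPM in light, 336 and 305 CPM after 1 and 2 days and 253 CPM after 8 days. SmedASXL_007079 had 486, 224, 230, 230 and 160 CPM in the 5 libraries, and SmedASXL_015573 had 440, 166, 172, 159 and 125 CPM. These 3 ended 1.40-fold, 1.40-fold and 1.33-fold under light. SmedASXL_004041, with 327, 119, 120, 109 and 79.0 CPM, ended 1.51-fold under light (1.44 to 1.57). SmedASXL_018636, with 256, 110, 106, 100.3 and 70.2 CPM, ended 1.57-fold under it (1.5 to 1.64).

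The lowest ratio of 8-day return to light belonged to a transcript of lower level. SmedASXL_009670 had 29.0 CPM in the control, 9.47 CPM in light, 7.64 and 8.79 CPM after 1 and 2 days and 4.58 CPM after 8 days. It ended 2.07-fold under light (1.74 to 2.45) and 6.32-fold under the control (5.47 to 7.32). On the CPM + 1 scale its log2 ratio to light was -0.91, short of 2-fold.

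The level course joined different kinds of transcripts, since it compares only the 8-day library with light. In some the reads were enough to place the level closely. SmedASXL_010499 had 441 CPM in the control, 187 CPM in light and 200, 211 and 183 CPM after 1, 2 and 8 days, with a ratio of 8-day return to light of 0.978 (0.948 to 1.01). After 2 days it was 1.13-fold above light (1.09 to 1.16). In others the reads were too few to place the level. SmedASXL_055492 had 319 reads in the control and 4, 6, 5 and 14 reads afterwards, with a ratio to light of 2.80 and an interval of 0.880 to 11.7. SmedASXL_004892 had 501, 15, 24, 50 and 31 reads in the 5 libraries, and a ratio of 1.66 (0.867 to 3.30). Some level transcripts rose after light and fell back. SmedASXL_019034 was 1.64-fold above light after 1 day (1.39 to 1.95), and its 8-day level was 0.695 of its 1-day level (0.596 to 0.809). Of the 37 level transcripts, 20 were under 10 CPM in the control.

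**Figure D3:**
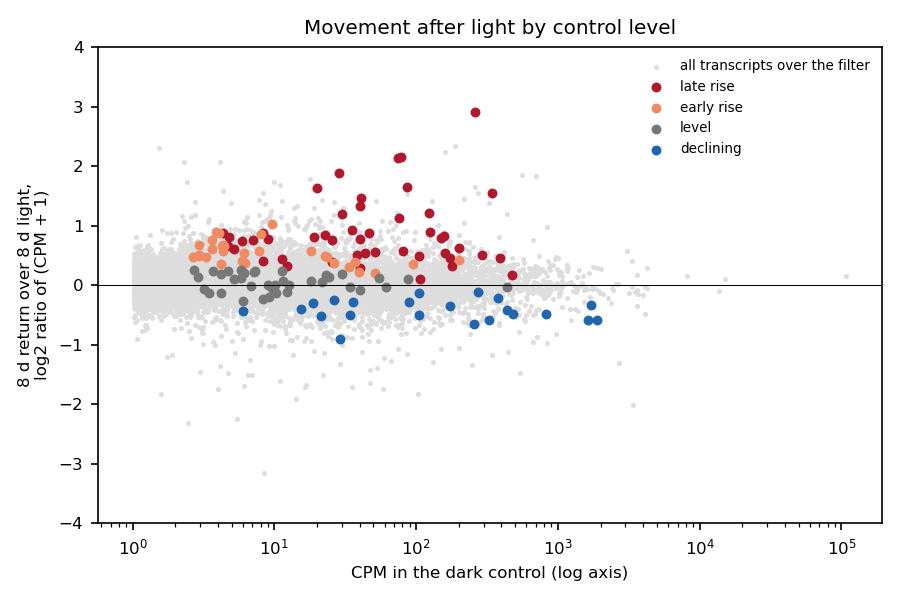
Log2 ratio of CPM + 1 between 8-day return and light (vertical axis) against CPM in the dark control (horizontal log axis), coloured by course, with all transcripts over the filter at or above 1 CPM in the control in grey. The early-rise points lie mostly at low control levels and the declining points mostly at high ones, while SmedASXL_002843 lies highest.

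The same light library sets the loss and is the base of the later ratios, so a low light value raises both, and no relation between them is read from these values. Among the 136, 46 were at least 4-fold lower in light and 90 were 2- to 4-fold lower. The median log2 ratio to light was 0.36, 0.40 and 0.78 after 1, 2 and 8 days for the 46, and 0.10, 0.08 and 0.15 for the 90. After 8 days 45 of the 46 were above light, and 53 of the 90. The 2-fold limit bounds the 90 more closely, since a transcript just under the limit in light could not move up and remain chosen. All 22 declining transcripts were among the 90. After 8 days the median level was 20.3% of control CPM for the 46 and 33.1% for the 90. A total of 18 transcripts were at least 4-fold under the control in every other library.

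The 136 were set beside the 220 other transcripts that were at least 2-fold lower in light but did not meet the rule. The 220 had a median of 12.4 CPM in the control, and 12 of them were 4-fold lower in light, against 46 of the 136. Their median log2 ratio to light was 0.31, 0.33 and 0.66 after 1, 2 and 8 days, which the rule partly fixes because these transcripts had to come closer to the control in at least 1 library. In all 3 return libraries 102 of the 220 were less than 2-fold under the control. The 8-day library was the only one to keep 63 out of the 136, the 2-day library the only one for 16 and the 1-day library for 5.

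**Figure D4:**
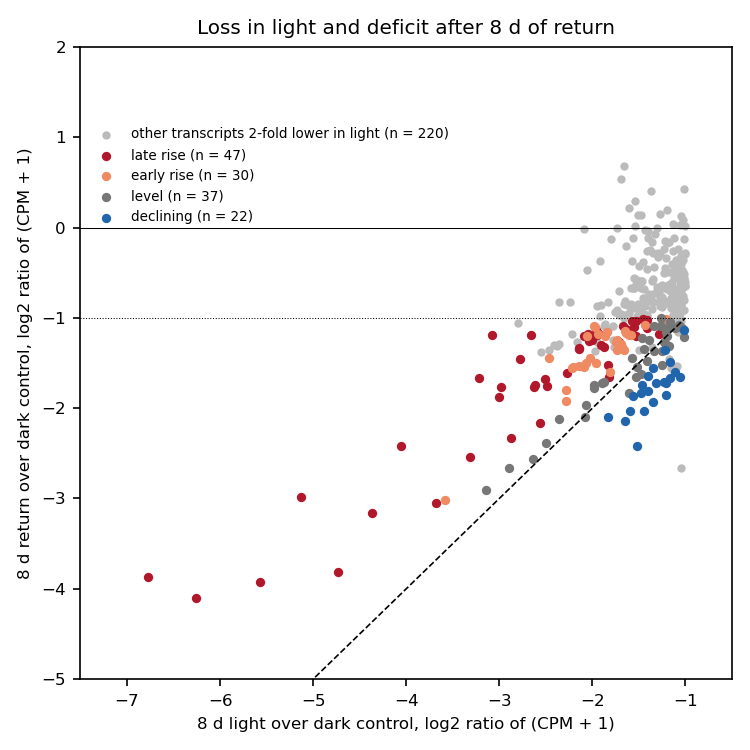
Log2 ratio of CPM + 1 to the dark control after 8 days of return (vertical axis) against that in light (horizontal axis), for the 136 transcripts coloured by course and the 220 other transcripts 2-fold lower in light in grey. Points above the dashed diagonal were higher after 8 days than in light; the dotted line is the 2-fold limit, and the solid line the control level, which 17 of the grey points exceed and none of the 136 by the rule.

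Leaving 1 library out of the rule showed how much each one decided. Without light the rule held for 139 transcripts, of which 136, or 97.8%, were 2-fold lower in light, against 1.67% of all transcripts. Without the 1-day library it held for 141, of which 96.5% were 2-fold under the control in that library (1.15% of all), and without the 2-day library for 152, with 89.5% (1.08%). Without the 8-day library it held for 199, of which 68.3% were 2-fold under the control after 8 days (1.00% of all) and 189 were under it by any amount. The highest of the 199 stood above the control by a log2 ratio of 0.68. Each of these shares uses the same dark control for the choice and for the comparison.

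The rule has an edge that many transcripts lie close to. The control exceeded the highest other library by a median of 2.40-fold on the CPM + 1 scale, by less than 2.2-fold in 39 transcripts and by at least 4-fold in 18. Just inside the limit were SmedASXL_030071 (2.00-fold), SmedASXL_002739 (2.00-fold), SmedASXL_038784 (2.01-fold) and SmedASXL_001444 (2.01-fold). SmedASXL_038784 shows a flat course, with 40.4 CPM in the control and 19.2, 19.6, 19.0 and 18.1 CPM afterwards. Just outside were SmedASXL_061222 (1.998-fold), SmedASXL_067205 (1.987-fold), SmedASXL_006304 (1.978-fold) and SmedASXL_012147 (1.955-fold). SmedASXL_061222 had 181, 84.4, 90.2, 86.6 and 61.8 CPM, a course like those of the declining transcripts.

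Some of the 136 carry neighbouring contig numbers, which the rule did not use. Of the 172 transcripts over the filter whose number is next to that of one of the 136, 14 (8.14%) were themselves among the 136, against 0.638% of all transcripts. Of the 158 others, 4 (2.53%) were at least 2-fold lower in light, against 1.67% of all, and their median log2 ratio of light to control was -0.01. The neighbours thus fell into a few close runs. The sources used here do not say how reads that match several contigs were counted, so contigs of shared sequence could share reads. Whether they do was not tested.

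The longest run was SmedASXL_017629, SmedASXL_017630, SmedASXL_017632, SmedASXL_017633 and SmedASXL_017634, named here because of their numbers. Their control levels were 5.87, 94.5, 7.79, 22.7 and 39.3 CPM. In light they stood at 1.12, 18.7, 1.09, 3.88 and 10.5 CPM, and after 8 days at 1.81, 24.1, 2.10, 5.83 and 12.3 CPM. In all 5 the 8-day level was above that in light and well under the control. The number missing from the run, SmedASXL_017631, had 2.37 CPM in the control and 0.754 CPM in light.

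The run SmedASXL_015723, SmedASXL_015724 and SmedASXL_015725 was lower by more. These transcripts had 11.5, 8.31 and 18.2 CPM in the control, 1.01, 0.572 and 0.598 CPM in light, and 1.12, 1.08 and 1.37 CPM after 8 days. The transcripts numbered on either side differed sharply from them. SmedASXL_015722 had 8.69 CPM in the control and 8.30 CPM in light, and SmedASXL_015726 had 4.06 and 4.03 CPM.

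SmedASXL_016681 and SmedASXL_016682 had 126 and 40.3 CPM in the control, 28.8 and 9.78 CPM in light, 47.0 and 14.9 CPM after 1 day, 47.4 and 14.9 CPM after 2 days, and 54.3 and 17.5 CPM after 8 days. Their reads kept 1 ratio within counting error. The next 2 numbers, SmedASXL_016683 and SmedASXL_016684, were lower in light in the same manner but came closer to the control. SmedASXL_016683 had 55.3 CPM in the control, 17.7 CPM in light and 34.4 CPM after 8 days, and SmedASXL_016684 had 17.5, 5.85 and 9.73 CPM. SmedASXL_015354 and SmedASXL_015355, with 6.23 and 4.22 CPM in the control and 1.25 and 1.17 CPM in light, formed the remaining run besides SmedASXL_009678 and SmedASXL_009679.

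**Figure D5:**
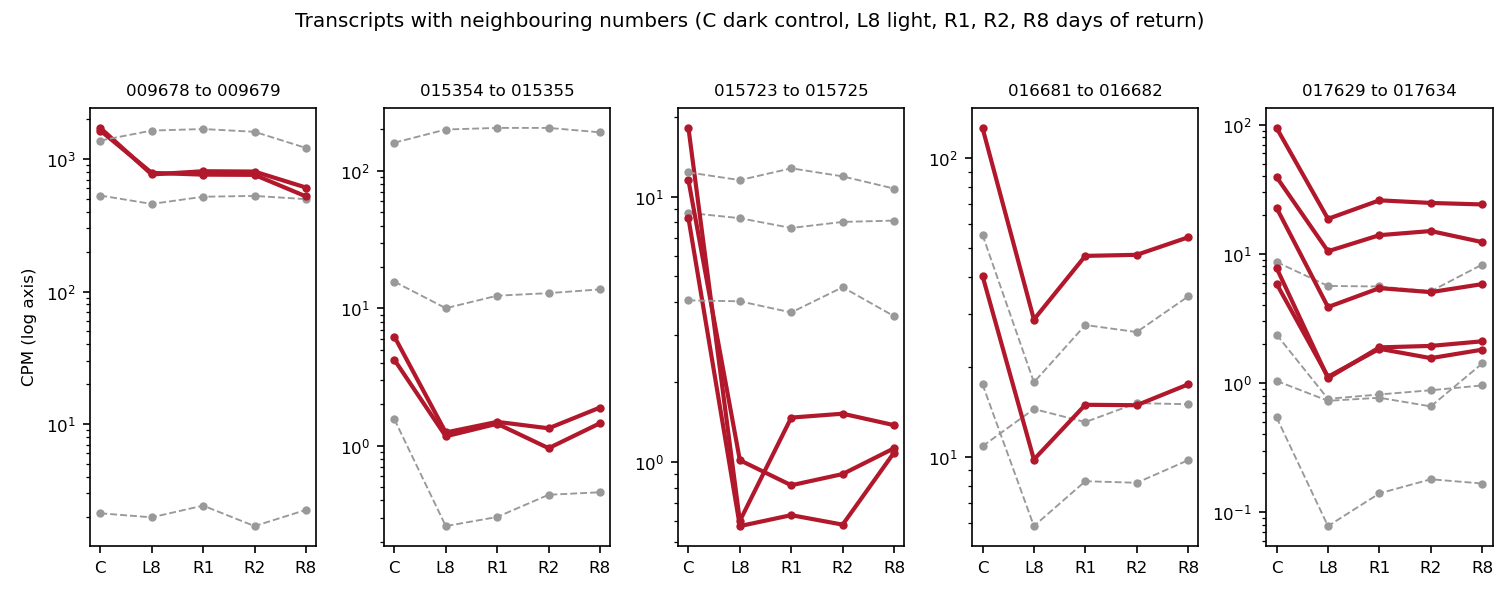
CPM (vertical log axis) in the dark control, in light and after 1, 2 and 8 days of return (horizontal axis) for the 5 runs of neighbouring contig numbers. Red lines are members of the 136 and dashed grey lines the contigs between and beside them; in the middle panel the 3 red lines drop in light from 11.5, 8.31 and 18.2 CPM while the grey ones hardly move.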

How the data were processed

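The samples are 5 whole-animal libraries. Per the labels' protocols they were made from poly(A) RNA, and per the design text the single-end reads had 50 bases. The authors trimmed 15 bases from the 3' end and aligned the reads with bowtie2 to the SmedASXL transcriptome assembly, per the design text; the submitters' processing notes name bcl2fastq 1.8.3 and Bowtie2 2.2.4. The deposited signal of each transcript is CPM + 1, per the file headers; without the 1, each column summed to 1000000. The deposited ratio, control over light, equals the quotient of the columns. Values were whole multiples of 1 read (to 0.01 reads), so reads were computed back; 3 reads correspond to 0.060 to 0.078 CPM. Each read is treated as independent, without molecular identifiers, so intervals cover counting error only. A count test across replicates was not run, with 1 library per group.

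Levels are CPM and differences log2 ratios of CPM + 1, which understate those of low transcripts. Ratios of CPM carry exact conditional binomial (Clopper-Pearson) 95% intervals. Members and lists were chosen with earlier results of these data known, and the 4 courses after these values had been seen. Transcripts were named by rule: the 8 with the highest control CPM, the 6 farthest under the control after 8 days, the 6 lowest over all 4 libraries (control at least 5 CPM), the 5 highest and 5 lowest against light after 8 days, the 3 highest at 2 days against 1 day, and 4 on each side of the limit; others are named where a count or a number picks them out. Pairs of members were said to keep 1 ratio where the chi-square of their reads over the libraries was under its 95% point, with at least 50 reads outside the control each. The pigment gene list could not be applied without gene names, and no sequence was used. The calculation was tested on simulated data. Python 3.11.15, numpy 2.4.6, pandas 2.3.3 and scipy 1.17.1 were used. All per-sample columns were used. Alternatives were other pseudocounts, filters, thresholds and scalings, 1 contig per set of like contigs, and the rule without each library.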

Additional observations from a re-analysis of the deposited data

Results flagged for a closer look

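Of the 136 transcripts, 9 lay on opposite sides of the light library at an early and at the late return time, beyond counting error at both. The same count was not made over all transcripts, and counting intervals are narrow where reads are many. The number is therefore not read as a trait of the 136. The 5 of these named by rule are listed first, then SmedASXL_005690, which is named above for its low 8-day ratio. The difference between times was not tested over animals. SmedASXL_004239 was 1.06-fold above light after 1 day (1.05 to 1.08) and below it after 8 days, with a log2 ratio of CPM + 1 of -0.59. SmedASXL_009678 was 1.06-fold above light after 1 day (1.04 to 1.07) and stood at -0.33 after 8 days. SmedASXL_015573 stood at -0.41 after 8 days, but its 1-day ratio of 1.04 has an interval that starts at 1.001. SmedASXL_002739 was 1.17-fold above light after 2 days (1.10 to 1.24) and stood at -0.13 after 8 days. SmedASXL_049390 moved the other way, 0.928 of its light level after 1 day (0.893 to 0.965) and a log2 ratio of 0.17 after 8 days. The early differences of these 5 are under 1.2-fold. SmedASXL_005690 moved in the same directions as SmedASXL_049390, with a larger early difference. It stood at 0.813 of its light level after 1 day (0.758 to 0.872) and 0.797 after 2 days (0.745 to 0.853). After 8 days it was 1.08-fold above light (1.01 to 1.15).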

How the results depend on the processing

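No paired analysis was possible because each condition has 1 library. The 3 median log2 ratios to light were above 0 under each alternative for which they were computed; for the rule without a library only the number of transcripts was computed, and the sign of the deficit is fixed by the rule. With a pseudocount of 0.1 CPM the median deficit after 8 days was -1.62, the median 1-day ratio to light 0.22, 52 transcripts were 2-fold above light after 8 days and 17 at least 50% of the way back. With 5 CPM 68 transcripts met the rule, 5 were 2-fold above light, 1 was 50% of the way back and 23 were higher at every step. Means of at least 5 and 10 CPM left 81 and 68 transcripts. At 1.5-fold 376 transcripts met the rule, with a median deficit of -1.03, 25 above light, 18 at 50% and 86 higher at every step; at 4-fold 18 did, with a median deficit of -2.78, a median 8-day ratio to light of 0.60, and 6, 0 and 7. TMM and median-of-ratios scaling gave a median 1-day ratio of 0.089 and 0.098, with 148 and 140 transcripts that include all 136. With 1 contig per set of like contigs there were 60 transcripts, a median deficit of -1.61 and 20 higher at every step. The other 58 of 84 values stayed within counting spread or 1.5 times the value reported. Without replicate libraries, variation between pools is not known, and low transcripts rest on few reads in light.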

Other observations

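For some pairs among the 136 transcripts the reads could not be told apart from 1 constant ratio. Of the 8911 pairs among the 134 transcripts with at least 50 reads outside the control, 691 kept 1 ratio over the 5 libraries within counting error. Grouped so that every pair within a set did so, 104 transcripts fell into 28 sets of 2 to 9, and 32 into none. Pairs of low transcripts meet this criterion easily, because few reads leave wide room. Pairs of other transcripts of like read level were not counted, so these numbers are not read as a trait of the 136.

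Sets and courses were both drawn from the reads of the same libraries, so a set that lies within a single course is not a separate finding. One of the sets with 9 transcripts lay wholly in the early-rise course. It held SmedASXL_000632, SmedASXL_001444, SmedASXL_004575, SmedASXL_006096, SmedASXL_008854, SmedASXL_020243, SmedASXL_024153, SmedASXL_033024 and SmedASXL_037826. Their control levels ran from 2.69 to 9.57 CPM and their levels in light from 0.182 to 0.910 CPM. After 1 day all 9 stood higher, between 0.629 and 3.29 CPM, and after 8 days between 0.646 and 2.90 CPM. Their numbers are scattered through the assembly, unlike those of the runs.

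A set of 7 lay wholly in the level course: SmedASXL_002463, SmedASXL_004676, SmedASXL_005623, SmedASXL_006184, SmedASXL_011936, SmedASXL_018544 and SmedASXL_019073. SmedASXL_002463 had the most reads of them, with 61.6 CPM in the control, 23.8 CPM in light, and 23.5, 23.6 and 23.3 CPM after 1, 2 and 8 days. Its ratio of 8-day return to light was 0.980 (0.897 to 1.07).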
